A study of Mus musculus with 18 samples.

Results

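The expression of 8 genes of meiosis and the germ line, Stag3, Smc1b, Rec8, Sycp1, Sycp3, Dazl, Ddx4 and Mael, was followed in differentiating mouse embryonic stem cells. They were chosen by symbol, with earlier results of these data known, so their counts beside all genes are a description. Of the 8, 7 had a probe set of their own among 22180 genes measured. The only probe set of Sycp3, a component of the synaptonemal complex, also carried the symbol Chpt1, so no level is given for it. RNA came from F1 (C57Bl6N x 129Sv) cells of the genotypes Pax7-/- and Pax7+/+, with 3 arrays per genotype at each of 3 days. At day 0 the cells were undifferentiated and grown with LIF, at day 7 they were embryoid bodies and at day 21 embryoid body outgrowths, and the differentiating cells had no LIF but retinoic acid (RA) and ITS. The nature of the Pax7 alteration and the number of cell lines behind each genotype are not given in the sources used here. The labels call the samples biological replicates without naming separate cultures, so p-values measure only the spread between these samples.

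Meiosis reduces the chromosome number of germ cells, and its cohesin ring, which ties sister chromatids together, is built with subunits of its own: Stag3, Smc1b and Rec8 stand in for subunits of the mitotic ring. Sycp1 and Sycp3 build the synaptonemal complex that joins paired chromosomes. Dazl is an RNA-binding protein, Ddx4 an RNA helicase and Mael a protein of the piRNA pathway, all of germ cells. In embryonic stem cells many germ line genes are held down by the repressive complex PRC1.6, whose subunits Mga and Max bind the E-box and E2f6 the E2F motif, and by DNA methylation, yet some of them give RNA.

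The arrays were of 2 kinds, not mentioned in the labels, which differed in the spread of their log2 values. In 10 arrays, called narrow, log2 values over probe sets had a standard deviation of 1.37 to 1.45, and in 8 arrays, called wide, of 1.79 to 1.85, with 1 or 2 arrays of each set in every group. Levels are deposited log2 intensities and are compared between arrays for 1 gene only, never between genes. Some are also set against the array's median over all probe sets. The Pax7 probe set read 4.68 to 6.37 log2 over all arrays, and Pax7-/- minus Pax7+/+ was 0.03 ± 0.23, -0.01 ± 0.24 and 0.25 ± 0.24 log2 (SE) at days 0, 7 and 21. Since the sources do not place its probes against the altered stretch, this reading checks no label. No arrays held identical values. In such bulk samples, fewer cells that express a gene and less of its RNA per cell cannot be told apart.

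The promoters of 4 of the 8 genes are shown because they carry, or lack, the letters that PRC1.6 subunits are known to bind. The windows run from 250 bases before to 50 bases after a transcript start, in the direction of transcription, from RefSeq on GRCm38.p6, and all 8 genes matched the table by symbol. Capitals mark the E-box CACGTG and the E2F motif TCCCGC or its reverse complement GCGGGA.
Stag3 (chr5:138280259-138280558, plus strand): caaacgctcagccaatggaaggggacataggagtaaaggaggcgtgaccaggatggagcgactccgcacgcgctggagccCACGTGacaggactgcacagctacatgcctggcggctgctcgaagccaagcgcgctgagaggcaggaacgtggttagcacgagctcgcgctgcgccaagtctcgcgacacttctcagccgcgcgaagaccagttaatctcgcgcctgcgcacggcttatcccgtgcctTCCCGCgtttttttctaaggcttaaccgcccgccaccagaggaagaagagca
Ddx4 (chr13:112652261-112652560, minus strand): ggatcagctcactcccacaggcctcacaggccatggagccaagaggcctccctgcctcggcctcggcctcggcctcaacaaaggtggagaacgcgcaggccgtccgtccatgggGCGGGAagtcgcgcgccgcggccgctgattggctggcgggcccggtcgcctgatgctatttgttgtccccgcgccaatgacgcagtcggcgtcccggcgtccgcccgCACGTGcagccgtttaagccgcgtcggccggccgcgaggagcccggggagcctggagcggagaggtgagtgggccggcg
Mael (chr1:166238695-166238994, minus strand): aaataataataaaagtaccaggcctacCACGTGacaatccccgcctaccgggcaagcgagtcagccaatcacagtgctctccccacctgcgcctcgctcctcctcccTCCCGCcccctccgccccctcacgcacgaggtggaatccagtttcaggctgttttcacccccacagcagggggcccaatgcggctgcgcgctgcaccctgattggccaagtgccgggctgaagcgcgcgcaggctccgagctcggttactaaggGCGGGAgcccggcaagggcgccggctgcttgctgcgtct
Dazl (chr17:50293571-50293870, minus strand): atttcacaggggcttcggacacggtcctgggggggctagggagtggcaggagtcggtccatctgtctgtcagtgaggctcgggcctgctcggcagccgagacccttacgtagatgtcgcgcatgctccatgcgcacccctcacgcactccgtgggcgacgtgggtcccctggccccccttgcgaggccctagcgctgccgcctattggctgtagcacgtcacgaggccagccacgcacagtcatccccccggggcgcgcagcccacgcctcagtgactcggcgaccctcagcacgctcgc
Of the windows shown, those of Stag3 and Ddx4 lie around a start inside the annotated gene (chr5:138272514-138312397 and chr13:112598333-112652633).

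Both strands were searched. CACGTG stood in 5 of the 8 promoters, those of Stag3, Sycp1, Sycp3, Ddx4 and Mael, against 7.15% of 32851 mouse promoters of the same length. TCCCGC or GCGGGA stood in 7 of the 8, all but Dazl, against 19.98%. The same 5 promoters held both motifs, and no match of one overlapped a match of the other. All 8 promoters held more of the dinucleotide CpG than the median promoter, 15 to 38 per window, where the median of all promoters was 7 and the upper quartile 20. A match is a description of letters and not a shown site, and no match in Dazl says only that these letters are not in this window.

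Stag3 was the 1 gene of the 7 with a genotype difference that passed the test over both array sets. At day 0 it read 6.99 and 6.82 log2 on the narrow arrays and 9.16 log2 on the wide array of Pax7-/- cells, against 5.56 and 5.83 log2 on the narrow arrays and 7.32 log2 on the wide array of Pax7+/+ cells. Within each array set every Pax7-/- array lay above every Pax7+/+ array, while the ranges over both sets overlapped. With array set as a block in the fit, Pax7-/- minus Pax7+/+ was 1.42 ± 0.31 log2 (SE, 3 arrays per genotype), or 2.68-fold, with limma adjusted p = 0.0335 over all genes, where under 0.05 passes. The narrow arrays alone gave 1.21 ± 0.14 log2 (limma adjusted p = 0.0019), and the 2 wide arrays, 1 per genotype, differed by 1.85 log2, which has no replicate of its own. Leaving out 1 array at a time ended the call for 6 of the 18 arrays, 5 of them of day 0, and the difference stayed between 1.08 and 1.62 log2. The lowest value, 1.08 log2 with limma adjusted p = 0.184, came without Pax7-/- replicate 2, the wide array.

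At day 7 Stag3 read 5.88 and 5.76 log2 on narrow arrays and 7.74 log2 on the wide array of Pax7-/- embryoid bodies, against 5.63 log2 on the narrow array and 7.22 and 7.33 log2 on wide arrays of Pax7+/+ ones. At day 21 it read 5.59 log2 on the narrow array and 6.35 and 6.46 log2 on wide arrays of Pax7-/- outgrowths, against 5.57 and 5.66 log2 on narrow arrays and 5.71 log2 on the wide array of Pax7+/+ ones. Neither genotype difference passed, at 0.20 ± 0.32 log2 (limma adjusted p = 0.935) and 0.02 ± 0.32 log2 (limma adjusted p = 0.987). On wide arrays the day 21 difference was 0.70 log2, with 1 Pax7+/+ array, and on narrow arrays it was -0.03 log2.

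In Pax7-/- cells Stag3 fell by 1.20 ± 0.31 log2 at day 7 relative to day 0 (limma adjusted p = 0.043) and fell by 1.99 ± 0.32 log2 at day 21 relative to day 0 (limma adjusted p = 0.0011). Both array sets showed these falls: the day 7 difference was -1.09 log2 on narrow and -1.43 log2 on wide arrays, and the day 21 difference -1.32 and -2.75 log2. In Pax7+/+ cells the corresponding differences were 0.03 ± 0.32 log2 (limma adjusted p = 0.986) and -0.59 ± 0.31 log2 (limma adjusted p = 0.245), the second made of -0.08 log2 on narrow and -1.60 log2 on wide arrays. The day 21 call in Pax7-/- cells held with each of the 18 arrays left out, and the day 7 call was lost for 12 of them, with -0.85 log2 (limma adjusted p = 0.281) without Pax7-/- day 0 replicate 2.

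**Figure D1:**
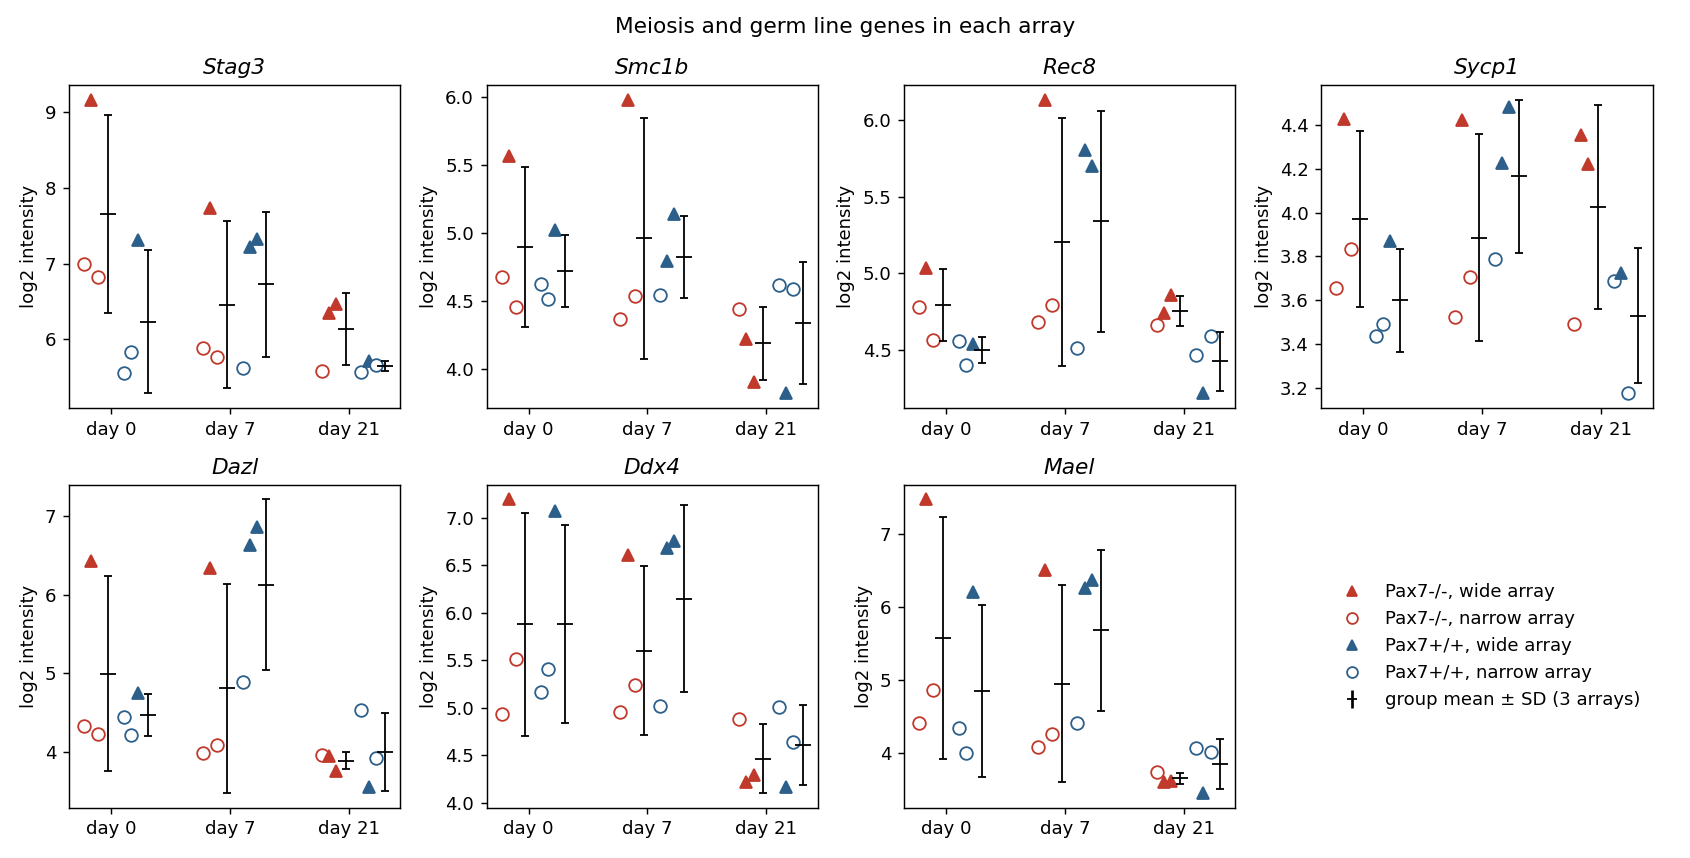
Log2 intensity of each of the 7 measured genes (vertical axis) on each array, by day, with Pax7-/- left of Pax7+/+, filled triangles for wide and open circles for narrow arrays, and the group mean ± SD over 3 arrays in black. Stag3 at day 0 was higher in Pax7-/- within both sets. The wide arrays of day 21 lay below those of days 0 and 7 for Ddx4 and Mael, as they did for 7.52% of all genes.

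Smc1b, the meiotic partner of Smc3 in the ring, read 4.37 to 4.67 log2 on all narrow arrays with no separation of days or genotypes. It lay below the array median on all 10 of them, where signal over background limits what can be read. On wide arrays it read 5.56 log2 at day 0, 5.98 log2 at day 7 and 4.22 and 3.91 log2 at day 21 in Pax7-/- cells, against 5.02 log2, 4.79 and 5.14 log2 and 3.82 log2 in Pax7+/+ cells. The 3 wide arrays of day 21 were thus the lowest wide arrays. Day 21 minus day 0 was -1.50 log2 in Pax7-/- and -1.20 log2 in Pax7+/+ cells on wide arrays, and -0.12 and 0.03 log2 on narrow arrays. Across both sets these were -0.83 ± 0.35 log2 (limma adjusted p = 0.154) and -0.38 ± 0.34 log2 (limma adjusted p = 0.519), which did not pass.

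Rec8, the meiotic kleisin that closes the ring and is cut at the meiotic divisions, had its high point at day 7, on wide arrays. There it read 5.04 log2 at day 0, 6.14 log2 at day 7 and 4.74 and 4.86 log2 at day 21 in Pax7-/- cells, against 4.54 log2, 5.81 and 5.70 log2 and 4.21 log2 in Pax7+/+ cells. All 3 wide arrays of day 7 lay above the 5 others, but how many of all genes did so was not counted. The narrow arrays read 4.40 to 4.79 log2 and showed no such rise, but Rec8 lay below the array median on all 10, which limits what can be read. On wide arrays day 7 minus day 0 was 1.10 log2 in Pax7-/- and 1.22 log2 in Pax7+/+ cells, and with both sets it was 0.41 ± 0.27 log2 (limma adjusted p = 0.483) and 0.68 ± 0.28 log2 (limma adjusted p = 0.202).

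Sycp1, the transverse filament of the synaptonemal complex, lay below the array's median over probe sets on all 18 arrays. Narrow arrays read 3.18 to 3.83 log2 and wide arrays 3.72 to 4.48 log2. No comparison of Sycp1 passed with both sets in the fit. The smallest adjusted p was that of day 21 minus day 7 in Pax7+/+ cells, -0.44 ± 0.15 log2 (limma adjusted p = 0.0988), with -0.36 log2 on narrow and -0.63 log2 on wide arrays.

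Dazl, which binds the messenger RNAs of germ cells and supports their translation, read 4.33 and 4.22 log2 on narrow arrays and 6.43 log2 on the wide array of Pax7-/- cells at day 0, against 4.44 and 4.22 log2 on narrow arrays and 4.75 log2 on the wide array of Pax7+/+ cells. At day 7 it read 3.99 and 4.09 log2 on narrow arrays and 6.34 log2 on the wide array in Pax7-/-, against 4.88 log2 on the narrow array and 6.64 and 6.87 log2 on wide arrays in Pax7+/+. At day 21 it read 3.95 log2 on the narrow array and 3.95 and 3.76 log2 on wide arrays in Pax7-/-, against 4.53 and 3.92 log2 on narrow arrays and 3.55 log2 on the wide array in Pax7+/+. The 3 wide arrays of day 21 were the lowest wide arrays, and the narrow arrays showed no such order. At day 0 the 1 wide array of Pax7-/- lay 1.68 log2 above that of Pax7+/+, while the narrow arrays gave -0.05 log2. With both sets in the fit it was 0.53 ± 0.50 log2 (limma adjusted p = 0.757).

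In Pax7+/+ cells Dazl fell by 1.80 ± 0.51 log2 at day 21 relative to day 7 (limma adjusted p = 0.049), with a difference of -0.66 log2 on narrow and -3.20 log2 on wide arrays. The call was lost for 13 of the 18 arrays left out in turn, and without Pax7+/+ day 21 replicate 2, the wide array, the difference was -1.02 log2 (limma adjusted p = 0.361). In Pax7-/- cells the same difference was -1.25 ± 0.51 log2 (limma adjusted p = 0.321), with -0.08 log2 on narrow and -2.49 log2 on wide arrays. The probe set lay above the array's median on none of the 10 narrow and on 5 of the 8 wide arrays, those of days 0 and 7.

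Ddx4, the mouse Vasa helicase of the germ granule, read 4.93 and 5.51 log2 on narrow arrays and 7.20 log2 on the wide array of Pax7-/- cells at day 0, against 5.16 and 5.41 log2 on narrow arrays and 7.07 log2 on the wide array of Pax7+/+ cells. At day 7 it read 4.95 and 5.23 log2 on narrow arrays and 6.61 log2 on the wide array in Pax7-/-, against 5.02 log2 on the narrow array and 6.68 and 6.75 log2 on wide arrays in Pax7+/+. At day 21 it read 4.88 log2 on the narrow array and 4.22 and 4.29 log2 on wide arrays in Pax7-/-, against 5.01 and 4.64 log2 on narrow arrays and 4.17 log2 on the wide array in Pax7+/+. No genotype difference of Ddx4 passed at any day, and the 3 wide arrays of day 21 lay more than 2 log2 below the 5 of days 0 and 7. Relative to day 0, Ddx4 at day 21 fell by 1.73 ± 0.50 log2 in Pax7-/- cells (limma adjusted p = 0.0406), with -0.34 log2 on narrow and -2.94 log2 on wide arrays. In Pax7+/+ cells the difference was -1.28 ± 0.49 log2 (limma adjusted p = 0.0954), with -0.46 and -2.91 log2. The Pax7-/- call was lost for 11 of the 18 arrays left out in turn, and without day 0 replicate 2 the difference was -1.26 log2 (limma adjusted p = 0.329).

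Mael, which acts with piRNAs against transposons in the male germ line, read 4.40 and 4.85 log2 on narrow arrays and 7.48 log2 on the wide array of Pax7-/- cells at day 0, against 4.34 and 3.99 log2 on narrow arrays and 6.20 log2 on the wide array of Pax7+/+ cells. At day 7 it read 4.08 and 4.26 log2 on narrow arrays and 6.51 log2 on the wide array in Pax7-/-, against 4.40 log2 on the narrow array and 6.26 and 6.37 log2 on wide arrays in Pax7+/+. At day 21 it read 3.73 log2 on the narrow array and 3.60 and 3.61 log2 on wide arrays in Pax7-/-, against 4.07 and 4.01 log2 on narrow arrays and 3.44 log2 on the wide array in Pax7+/+. At day 0 the Pax7-/- arrays were the higher ones within each set. At day 21 the wide arrays read below the narrow ones in deposited values. Set against each array's median, Mael overlapped between the sets, at -1.23 to -1.03 log2 on wide and -1.21 to -0.90 log2 on narrow arrays. Relative to day 0, Mael at day 21 fell by 2.40 ± 0.56 log2 in Pax7-/- cells (limma adjusted p = 0.0141), with -0.90 log2 on narrow and -3.88 log2 on wide arrays. In Pax7+/+ cells the difference was -1.0 ± 0.54 log2 (limma adjusted p = 0.254), with -0.13 and -2.76 log2. Without Pax7-/- day 0 replicate 2 the Pax7-/- difference was -1.72 log2 (limma adjusted p = 0.173), and without day 21 replicate 2 or 3 it was -2.15 log2 (limma adjusted p = 0.0639) and -2.16 log2 (limma adjusted p = 0.0656).

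Genotype calls over both array sets were counted beside those over all genes. At day 0, 1 of the 7, Stag3, passed and was higher in Pax7-/- cells, where 1.28% of all genes passed and 0.388% were higher. At day 7 none of the 7 passed with limma, where 0.627% of all genes did, and none had an unadjusted p under 0.05, where 9.96% of all genes had. At day 21 none passed, where 4.89% of all genes did, and again none had an unadjusted p under 0.05, where 17.3% of all genes had. The Mael difference at day 0 was 0.73 ± 0.54 log2 with limma adjusted p = 0.672 with 1 term for the array set, and 0.73 ± 0.17 log2 with limma adjusted p = 0.0305 in a fit with an array set term for each day, added after both sets' values were seen, in which 2.82% of all genes passed. In that fit Stag3 at day 0 was 1.42 ± 0.16 log2 with limma adjusted p = 0.000159. Within both array sets at day 0, all Pax7-/- arrays lay above all Pax7+/+ arrays for 4 of the 7, Stag3, Rec8, Sycp1 and Mael, where 12.1% of all genes did so. At day 7 this held for Stag3 and Rec8, where 15.3% of all genes did so, and the opposite held for Dazl, where 16.8% did. At day 21 it held for Rec8, where 18.8% did. The share of all genes shows how easily so few arrays per set separate. On narrow arrays alone Stag3 passed at day 0 (0.221% of all genes were higher). A fit to wide arrays alone has 1 array in at least 1 genotype at every day and takes its spread from the other groups, with 2 residual degrees of freedom, so a lone array is assumed to vary like them. Under that assumption Stag3, Dazl and Mael passed at day 0 (2.25% of all genes were higher) and Stag3 at day 21 (5.27%), and these calls are given as a description.

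**Figure D2:**
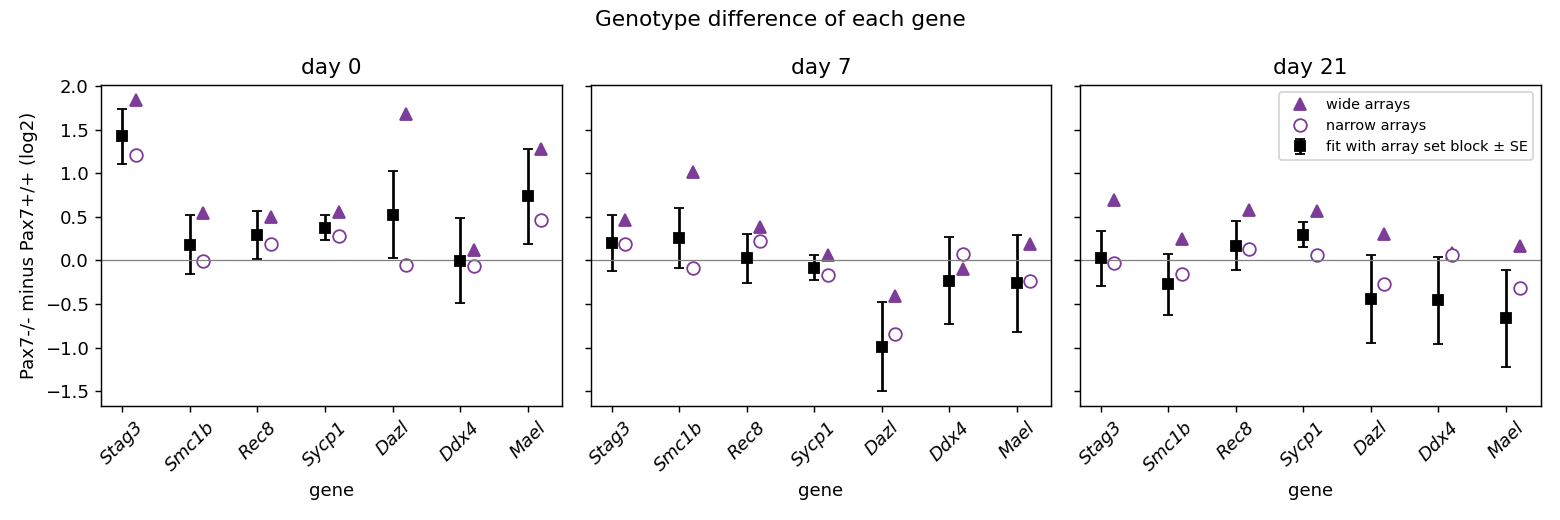
Pax7-/- minus Pax7+/+ difference (log2, vertical axis) of each gene at days 0, 7 and 21. Black squares give the blocked limma estimate ± SE, triangles the difference on wide arrays and circles that on narrow arrays. Stag3 stood at 1.42 log2 at day 0, with both sets on the same side, while Dazl at day 0 split into 1.68 log2 on wide and -0.05 log2 on narrow arrays.

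With 1 term for the array set, some fitted differences fell outside the range of the 2 sets. Mael at day 21 was fitted at -0.66 ± 0.56 log2, while the narrow arrays gave -0.31 log2 and the wide arrays 0.16 log2. With an array set term for each day the same difference was -0.08 ± 0.18 log2, and those of Dazl and Ddx4 were 0.02 ± 0.27 and 0.07 ± 0.15 log2. For these genes the within-set values are therefore the ones to read at days 7 and 21.

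Between days, each call with 1 array set term was a fall. In that fit 1 of the 7, Stag3, fell at day 7 relative to day 0 in Pax7-/- cells (3.86% of all genes passed and 1.82% were lower), and none passed in Pax7+/+ cells, where 5.69% of all genes did and 3 of the 7 had an unadjusted p under 0.05 with limma, against 17.7% of all genes. At day 21 relative to day 7 none passed with limma in Pax7-/- cells, where 0.834% of all genes did and 6 of the 7 had an unadjusted p under 0.05, against 12.1% of all genes, and 1, Dazl, fell in Pax7+/+ cells (5.85% of all genes passed and 4.48% were lower). At day 21 relative to day 0, 3 of the 7, Stag3, Ddx4 and Mael, fell in Pax7-/- cells, where 8.97% of all genes passed and 4.04% were lower, and none passed in Pax7+/+ cells with limma, where 14.6% of all genes did and 1 of the 7 had an unadjusted p under 0.05, against 27.4% of all genes. The median difference of the 7 from day 0 to day 21 was -1.44 log2 in Pax7-/- and -0.47 log2 in Pax7+/+ cells, against -0.00 and 0.03 log2 over all genes. By array set these medians of the 7 were -0.32 and -0.08 log2 on narrow arrays, and -2.58 and -1.20 log2 on wide arrays. Pax7-/- outgrowths had 2 wide arrays and Pax7+/+ outgrowths 1, so a fit with 1 array set term mixes the sets unequally between genotypes, and a call in 1 genotype alone does not show that the genotypes differ.

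The size of these falls depended on the array set. On wide arrays alone, day 21 relative to day 7 was lower for 6 of the 7 in Pax7-/- cells (1.73% of all genes were lower) and for 7 of the 7 in Pax7+/+ cells (8.35%), and day 21 relative to day 0 was lower for 5 of the 7 in both genotypes (12.3% in Pax7-/- and 12.7% in Pax7+/+). At day 7 relative to day 0, wide arrays called Rec8 higher (7.73% of all genes) and Stag3 and Mael lower (6.8%) in Pax7-/- cells, and Rec8 and Dazl higher (7%) in Pax7+/+ cells. That fit had 2 residual degrees of freedom. On narrow arrays alone, with 4 residual degrees of freedom, Stag3 passed in Pax7-/- cells, at day 7 (1.35% of all genes were lower) and at day 21 (0.893%) relative to day 0, and no other gene of the 7 passed a comparison between days. The wide arrays of day 21 lay below all wide arrays of days 0 and 7 without overlap for 5 of the 7, Stag3, Smc1b, Dazl, Ddx4 and Mael, where 7.52% of all genes did so, and on narrow arrays this held for 0 of the 7, where 2.66% did.

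A fit with an array set term for each day, giving both sets the same weight, was added after the values were seen. In it Ddx4 at day 21 relative to day 0 fell by 1.62 ± 0.15 log2 in Pax7-/- (limma adjusted p = 1.37e-06) and fell by 1.70 ± 0.15 log2 in Pax7+/+ cells (limma adjusted p = 3.59e-07). Mael fell by 2.28 ± 0.18 log2 in Pax7-/- (limma adjusted p = 2.37e-07) and fell by 1.47 ± 0.18 log2 in Pax7+/+ cells (limma adjusted p = 1.02e-05). Stag3 fell by 1.92 ± 0.16 log2 in Pax7-/- and fell by 0.83 ± 0.16 log2 in Pax7+/+ cells (limma adjusted p = 4.57e-07 and 0.000857). With Smc1b and Dazl, 5 of the 7 fell in each genotype. In either direction 16.8% of all genes passed in Pax7-/- and 26% in Pax7+/+ cells. At day 21 relative to day 7, 6 of the 7 fell in Pax7-/- (3.92% of all genes passed) and 5 in Pax7+/+ cells (12.5%). At day 7 relative to day 0, Rec8 rose and Stag3 and Mael fell in Pax7-/- (12.8%), and Rec8 and Dazl rose in Pax7+/+ cells (12.2%). All these shares of all genes count rises and falls together, while the counts of the 7 are given by direction.

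The difference between the sets was tested itself, in the same fit. The change from day 7 to day 21 was more negative on wide arrays for 6 of the 7, all but Sycp1, where 0.987% of all genes were so. From day 0 to day 21 it was more negative on wide arrays for 5 of the 7, where 5.67% of all genes were so. Wide minus narrow was -2.80 ± 0.26 log2 for Mael (limma adjusted p = 3.6e-06), -2.52 for Ddx4, -1.68 for Dazl, -1.48 for Stag3 and -1.30 for Smc1b. From day 0 to day 7 it was more positive on wide arrays for Rec8, by 1.11 ± 0.18 log2 (limma adjusted p = 0.00114), where 3.23% of all genes were so. After every array was rescaled to the same standard deviation the same 6, 5 and 1 genes passed, and the Mael value was -2.06 log2 (limma adjusted p = 0.00011). Since the 7 were chosen with earlier results of these data known, their counts beside the shares of all genes carry no test. The cause of the difference between the array sets was not tested.

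**Figure D3:**
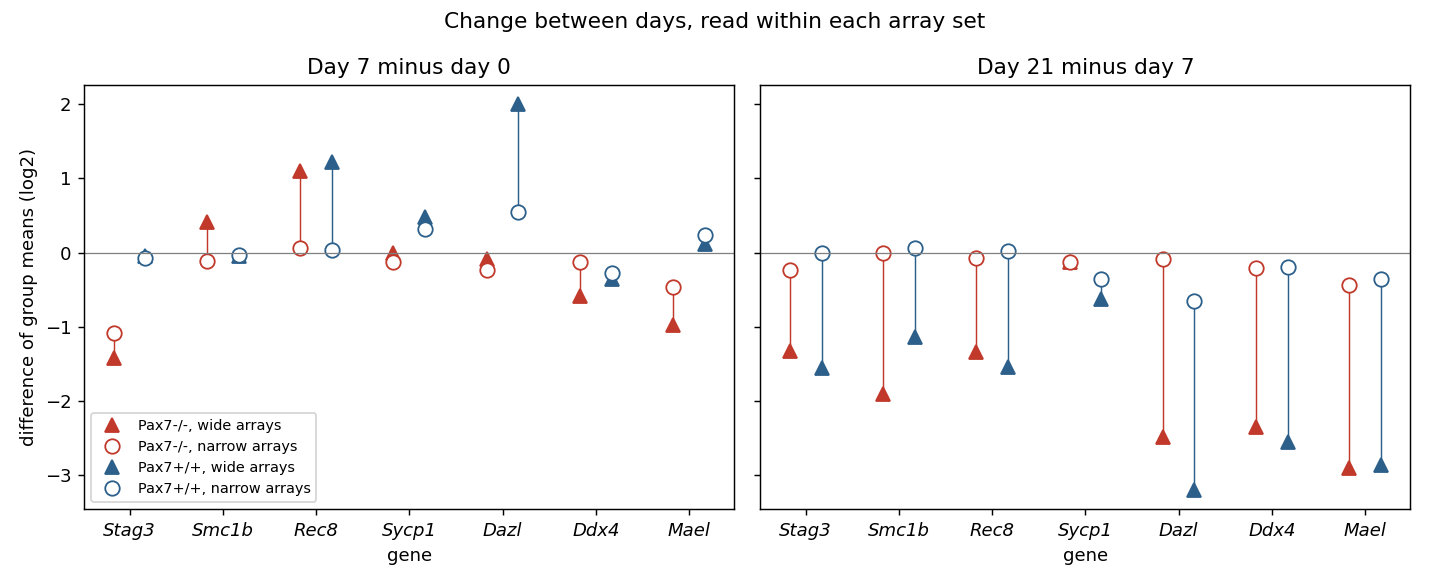
Difference between group means (log2, vertical axis) of each gene between days 0 and 7 and between days 7 and 21, in Pax7-/- (red) and Pax7+/+ (blue), with triangles for wide and circles for narrow arrays, joined by a line. From day 7 to day 21 the wide arrays gave -2.90 log2 for Mael in Pax7-/- and -2.87 log2 in Pax7+/+, where the narrow arrays gave -0.44 and -0.36 log2.

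With 1 array set term, no gene of the 7 passed a test of whether the genotype difference itself changed between days, where 0.482% of all genes passed from day 0 to day 7. The share of all genes was 0.911% from day 7 to day 21, and 1.86% over the whole course to day 21. At an unadjusted p under 0.05, limma gave 3, 0 and 1 of the 7 for these intervals, against 9.45%, 10.3% and 13.6% of all genes. For Stag3 the change was -1.23 ± 0.45 log2 from day 0 to day 7 (limma adjusted p = 0.356) and -1.40 ± 0.45 log2 from day 0 to day 21 (limma adjusted p = 0.141). The second passed on narrow arrays alone (-1.24 log2, limma adjusted p = 0.0149), on wide arrays alone (-1.15 log2, limma adjusted p = 0.0388, both with groups of 1 array), after rescaling the arrays (-1.48 log2, limma adjusted p = 0.0287) and after quantile normalization (-1.64 log2, limma adjusted p = 0.00401). On narrow arrays Stag3 was the 1 gene of the 7 that passed there, where 0.365% of all genes were lower. On wide arrays Stag3, Dazl and Mael passed from day 0 to day 21, where 1.61% of all genes were lower, and Stag3 and Dazl from day 0 to day 7, where 0.897% were. With an array set term for each day, Stag3 changed by -1.10 ± 0.23 log2 from day 0 to day 7 (limma adjusted p = 0.0256) and by -1.09 ± 0.23 log2 from day 0 to day 21 (limma adjusted p = 0.0135), the 1 gene of the 7 to pass, where 1.04% and 3.93% of all genes passed. Whether the fall of Stag3 in Pax7-/- cells differed from its change in Pax7+/+ cells thus depended on the setting.

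Among themselves the genes followed each other to different degrees over the 18 arrays, after each gene was centred within its array set. The highest correlation was that of Ddx4 with Mael (r = 0.96), and the lowest that of Sycp1 with Ddx4 (r = 0.32). These arrays share days and genotypes, so the values describe a common pattern and carry no test. Values were centred but not scaled, so the wide arrays weigh more. Mael, for example, read 3.44 to 7.48 log2 on wide and 3.73 to 4.85 log2 on narrow arrays. By the same measure over all genes, the closest to Stag3 were Syce1 (0.94) and Meioc (0.92), both of meiosis, and Mars2 (0.91). The closest to Smc1b were H2bc1 (0.92), Iho1 (0.90) and Haspin (0.88), to Dazl Zfp985 (0.95), Calcoco2 (0.93) and Sohlh2 (0.93), and to Mael Zyg11a (0.97), Phf11d (0.96) and Gstp3 (0.96). Ddx4 was closest to Sorl1 (0.98), Lefty1 (0.96) and Nemp1 (0.96). Rec8 stood apart from these, with the Hox genes Hoxa5 (0.88) and Hoxb8 (0.88) and with Got1l1 (0.88), and Sycp1 was closest to Cenpx (0.84), Kcnk1 (0.84) and Mrpl13 (0.81).

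Other meiosis genes of cohesin, the synaptonemal complex and recombination, 32 listed and 32 measured, were lower at day 21 where they passed. At day 21 relative to day 0, 7 fell and none rose in Pax7-/- cells, against 4 fallen and none risen in Pax7+/+ cells, with median differences of -0.30 and -0.12 log2. Over all genes 4.04% were lower and 4.92% higher in Pax7-/-, and 9.64% lower and 4.97% higher in Pax7+/+ cells, beside which the counts of the lists from day 0 to day 21 stand. The largest falls in Pax7-/- were those of Meioc, which keeps germ cells in meiotic prophase (-2.14 ± 0.56 log2), of Syce1, a central element of the synaptonemal complex (-1.24 ± 0.33 log2), and of Tex11, a meiotic crossover factor (-1.20 ± 0.33 log2). In Pax7+/+ they were those of the recombinase Dmc1 (-1.02 ± 0.29 log2), the mismatch repair gene Mlh3 (-0.91 ± 0.19 log2) and Mei4, needed for meiotic DNA breaks (-0.46 ± 0.14 log2). The array sets split here as well: Meioc gave -0.96 log2 on narrow and -3.60 log2 on wide arrays in Pax7-/-. On wide arrays the median difference of the 32 was -0.57 log2 in Pax7-/- and -0.19 log2 in Pax7+/+ cells. On narrow arrays it was -0.11 and -0.07 log2. At day 0, 1 of the 32 was higher in Pax7-/-, where 0.388% of all genes were. It was Terb2 of the telomere anchoring complex (0.45 ± 0.10 log2, limma adjusted p = 0.0422).

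A list of 25 other germ line genes, of which 25 were measured, was named for RNA handling and the piRNA pathway but held others too. At day 21 relative to day 0, 5 of the 25 fell and none rose in Pax7-/- cells. In Pax7+/+ cells 1 fell and none rose. Hsf2bp, a partner of the meiotic recombination machinery, fell by 1.96 ± 0.45 log2 in Pax7-/- and fell by 2.35 ± 0.45 log2 in Pax7+/+ cells. Tex14, of the bridges between germ cells, fell by 1.64 ± 0.43 log2 and the piRNA helicase gene Mov10l1 fell by 1.59 ± 0.36 log2 in Pax7-/-. Hsf2bp moved in both sets, with -0.85 log2 on narrow and -3.18 log2 on wide arrays of Pax7-/- and -1.49 and -4.07 log2 of Pax7+/+. On wide arrays the median difference of the 25 was -0.46 log2 in Pax7-/- and -0.14 log2 in Pax7+/+ cells. On narrow arrays it was -0.02 and -0.05 log2.

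**Figure D4:**
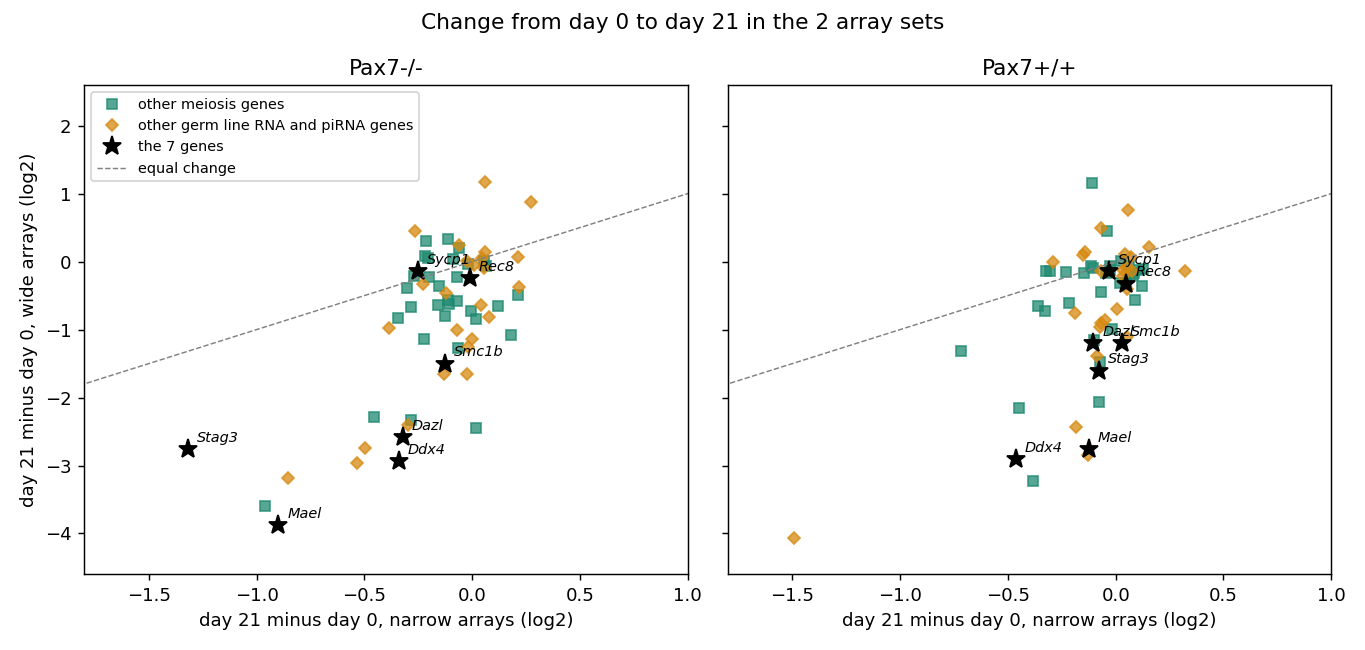
Day 21 minus day 0 difference (log2) of the 7 genes (stars), 32 other meiosis genes (squares) and the list of 25 other germ line genes named for RNA and piRNA (diamonds). Narrow arrays are on the horizontal and wide arrays on the vertical axis, in Pax7-/- and Pax7+/+, with a dashed line where both are equal. Mael lay at -0.90 and -3.88 log2 in Pax7-/-, and Stag3 at -1.32 and -2.75 log2.

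Of 10 genes of primordial germ cell specification, 1 was lower in Pax7-/- at day 0, Ifitm3 (-0.85 ± 0.18 log2), and 1 at day 21, Kit (-0.82 ± 0.22 log2). Over all genes 1.28% passed between genotypes at day 0 and 4.89% at day 21. Of the 10, 1 rose and 3 fell at day 21 relative to day 0 in each genotype. The receptor gene Kit rose by 1.64 ± 0.22 log2 in Pax7-/- and by 3.28 ± 0.21 log2 in Pax7+/+ cells, and the membrane protein gene Ifitm3 changed by -1.29 ± 0.18 log2 and -1.99 ± 0.18 log2. Stra8, the retinoic acid target that opens meiosis, had its high point at day 7 on wide arrays, as Rec8 did. In Pax7+/+ cells it rose by 1.19 ± 0.32 log2 at day 7 relative to day 0 (limma adjusted p = 0.0402) and fell by 1.16 ± 0.32 log2 at day 21 relative to day 7 (limma adjusted p = 0.0451). On wide arrays its day 7 rise was 1.96 log2 and on narrow arrays 0.06 log2. Of 6 measured genes of 8 on the retinoic acid list, which includes Stra8, 2 rose at day 7 in each genotype, Cyp26a1 in both, Dhrs3 in Pax7-/- and Stra8 in Pax7+/+ cells. Over all genes 3.86% passed at day 7 relative to day 0 in Pax7-/- and 5.69% in Pax7+/+ cells. Cyp26a1, which breaks retinoic acid down, rose by 2.18 ± 0.38 log2 in Pax7-/- and 2.52 ± 0.38 log2 in Pax7+/+ cells. Cyp26a1 rose in both sets, by 1.74 log2 on narrow and 3.05 log2 on wide arrays of Pax7-/-.

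The mitotic counterparts of the meiotic ring were read beside Stag3. Of 16 genes of mitotic cohesin and its regulators, none differed between genotypes at day 0. Over all genes 1.28% passed there, so a count of none is near that share. At day 7, 1, the loader gene Mau2, was higher in Pax7-/- (0.52 ± 0.11 log2), where 0.627% of all genes passed. At day 21, 2 were higher in Pax7-/-, where 3.82% of all genes were. At day 21 relative to day 0, 3 fell in Pax7-/- and 7 in Pax7+/+ cells. On narrow arrays the median difference of the 16 was 0.03 log2 in Pax7-/- and -0.55 log2 in Pax7+/+ cells. On wide arrays it was -0.20 and -0.13 log2. The acetyltransferase gene Esco2 fell by 0.82 ± 0.19 log2 in Pax7-/- and fell by 1.62 ± 0.19 log2 in Pax7+/+ cells, and Cdca5, the sororin that holds cohesion, changed by -0.57 ± 0.14 and -1.20 ± 0.14 log2. At day 21 Esco2 was 0.72 ± 0.19 log2 and Cdca5 0.53 ± 0.14 log2 higher in Pax7-/-.

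Of 18 known repressors of germ line genes, none differed between genotypes at day 0, where 1.28% of all genes passed. At day 21, 5 were higher and none lower in Pax7-/-, where 3.82% of all genes were higher. They were led by the DNA methyltransferase gene Dnmt3b (1.41 ± 0.20 log2), Trim28, the corepressor of zinc finger proteins (1.17 ± 0.27 log2, with 1.72 on narrow and 0.26 on wide arrays), and Hells, a remodeller needed for DNA methylation (1.01 ± 0.13 log2). At day 21 relative to day 0, 3 rose and 4 fell in Pax7-/- and none rose and 7 fell in Pax7+/+ cells. On narrow arrays the median difference of the 18 was -0.01 log2 in Pax7-/- and -0.39 log2 in Pax7+/+ cells. On wide arrays it was -0.20 and -0.17 log2. Pcgf6, the defining subunit of PRC1.6, fell by 0.65 ± 0.14 log2 in Pax7-/- and fell by 1.70 ± 0.14 log2 in Pax7+/+ cells, with -0.71 and -0.67 log2 on narrow and wide arrays of Pax7-/-. Mga, its E-box binding subunit, fell by 0.70 ± 0.18 log2 in Pax7-/- and fell by 1.30 ± 0.18 log2 in Pax7+/+ cells. The part of the repressors in the changes of the 7 genes was not tested.

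Markers of undifferentiated stem cells fell over the same interval as Stag3, Ddx4 and Mael. Of 8 markers, 8 fell at day 21 relative to day 0 in Pax7-/- and 6 in Pax7+/+ cells, with median differences of -1.88 and -1.98 log2. Their summed intensity was 2793.8 to 2973.4 on narrow and 5936.2 to 6504.1 on wide arrays of day 0, and 550.3 to 625.6 on narrow and 1246.5 to 2133.5 on wide arrays of day 21. Their median difference was -1.91 log2 on narrow and -1.98 log2 on wide arrays of Pax7-/-, and -1.68 and -2.69 log2 of Pax7+/+. Between genotypes at day 21, 3 of the 8 were higher in Pax7-/-, Utf1 (1.45 ± 0.28 log2), Sox2 (1.41 ± 0.21 log2) and Nanog (1.37 ± 0.33 log2), and 1, Klf4, was lower (-1.20 ± 0.16 log2). Over all genes 4.89% passed between genotypes at day 21 and 3.82% were higher in Pax7-/-. The median genotype difference of the 8 was -0.08 log2 on narrow and 1.29 log2 on wide arrays. Markers of two-cell-like cells, 6 of 7 measured, read in sum 118.7 to 466.8 on wide arrays of day 0, 193.9 to 622.2 at day 7 and 76.9 to 107.1 at day 21, and 101.0 to 164.0, 121.5 to 229.4 and 103.9 to 115.2 on narrow arrays. In Pax7+/+ cells, beside the values of Dazl, 2 of the 6 rose at day 7 relative to day 0, Zscan4c and Zscan4d, and 3 fell at day 21 relative to day 7, the same and Zfp352. In these comparisons 5.69% and 5.85% of all genes passed. Of the 6, Zfp352 was lower in Pax7-/- at day 7 (-1.41 ± 0.30 log2, limma adjusted p = 0.0477), where 0.627% of all genes passed, and none differed at day 0. Of 8 oocyte markers and 6 measured spermatid markers of 7, none differed between genotypes at any day. Of 6 measured Sertoli and granulosa markers of 7, 1, Sox9, was higher in Pax7-/- at day 21 (0.99 ± 0.26 log2). Between genotypes 1.28%, 0.627% and 4.89% of all genes passed at days 0, 7 and 21. Of 8 extraembryonic endoderm markers, 2 were higher in Pax7-/- at day 0, beside Stag3: Gata6 (1.26 ± 0.27 log2) and Sparc (0.53 ± 0.12 log2). Over all genes 0.388% were higher in Pax7-/- at day 0. Of the 8 extraembryonic endoderm markers 2 rose in Pax7-/- and 7 in Pax7+/+ cells at day 21 relative to day 0, and of 7 fibroblast markers 1 rose and 1 fell in Pax7-/- against 2 and 1 in Pax7+/+ cells. The part of these cell types in the changes of the 7 genes was not tested.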

How the data were processed

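RNA was measured on 18 Affymetrix arrays. The deposited log2 intensities were made by the authors with RMA, and Partek is also named, per the submitters' processing notes, with no version given. Of 41345 probe sets, 23521 carried 1 symbol in the platform annotation, 1814 several and 16010 none. Each of 22180 genes was read from its brightest probe set by mean, with no filter on low values, and 21994 matched RefSeq by identifier.

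The labels gave genotype and day of each sample. Arrays with a standard deviation above 1.6 log2 over probe sets were called wide, the others narrow. The test was that of limma 3.58.1 (R 4.3.3): 6 group means, array set as a block, 11 residual degrees of freedom, eBayes, and Benjamini-Hochberg adjustment over all genes per comparison, with 0.05 as threshold. Code was tested on simulated data. The number of arrays, 3 per group, limits the precision. Alternatives were fits without the block, to each set alone, with other scalings, filters and summaries, with a replicate block, and without each array. What was added after the values were seen included the fit with an array set term for each day.

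From each list, up to 3 passing genes per direction and comparison with the largest difference were named; for likeness, the 3 highest correlations, passing over predicted genes. The members, lists and rules were chosen with earlier results of these data known. Arrays of the same replicate number and day correlated between -0.215 and 0.231 after removal of group and set, so numbers were not used as pairs. Figures used Python 3.11.15 and matplotlib 3.10.9.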

Additional observations from a re-analysis of the deposited data

Results flagged for a closer look

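In the related gene lists, 7 tests of whether the genotype difference itself changed between days passed (limma, adjusted p over all genes), and 11 passed in the marker lists. Values follow for the 3 largest per list, interval and direction in the related lists. From day 0 to day 21 the Pax7-/- minus Pax7+/+ difference of Dnmt3b changed by 1.95 ± 0.28 log2 (limma adjusted p = 0.0025), with 1.52 log2 on narrow and 2.51 log2 on wide arrays. From day 7 to day 21 it changed by 1.72 ± 0.29 log2 (limma adjusted p = 0.0118). For Hells the changes were 0.99 ± 0.18 log2 from day 0 (limma adjusted p = 0.00952) and 1.07 ± 0.19 log2 from day 7 to day 21 (limma adjusted p = 0.0133). For Pcgf6 the change from day 0 to day 21 was 1.05 ± 0.20 log2 (limma adjusted p = 0.0136). For Kit it was -1.64 ± 0.30 log2 (limma adjusted p = 0.0103), with -1.71 log2 on narrow and -2.01 log2 on wide arrays.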

How the results depend on the processing

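Over all alternatives the 7 genes' differences gave 2180 values on the same side of the threshold and in the same direction, 113 in the other direction where neither value passed, 59 that no longer passed, 72 that newly passed and no reversal of a called value. Without the array set block, 0 of the 7 passed at day 0 between genotypes, at day 7 and at day 21 relative to day 0 in Pax7-/-, and at day 21 relative to day 7 in Pax7+/+, and 0, 3, 5, 8, 15 or 29 genes passed in all in the 12 comparisons. On narrow arrays alone the counts that moved were 0 (day 21 relative to day 7, Pax7+/+), 1 (day 21 relative to day 0, Pax7-/-) and 1 (change of the genotype difference, day 0 to day 21); over all genes 32, 523, 489, 90, 496 and 400. On wide arrays alone they were 3 and 1 between genotypes at days 0 and 21, 3 in Pax7-/- and 2 in Pax7+/+ at day 7 relative to day 0, 6 and 7 at day 21 relative to day 7, 5 and 5 at day 21 relative to day 0, and 2 and 3 for the change of the genotype difference from day 0 to days 7 and 21; over all genes 1142, 410, 1901, 3222, 3026, 815, 3161, 5716, 5086, 464, 337 and 811. Arrays rescaled to the same standard deviation gave 1 (Ddx4, day 21 relative to day 0, Pax7+/+) and 1 (Stag3, change of the difference to day 21), and 126 genes for the change from day 7 to day 21. Quantile normalization gave 1 in the same 2 comparisons and 1 (Stag3) for the change to day 7, and over all genes 466, 233, 1410, 332 and 191. The mean over probe sets gave 0 for Dazl's comparison in Pax7+/+ (adjusted p = 0.0503 with limma). With an array set term for each day, 2 passed at day 0, 3 in Pax7-/- and 2 in Pax7+/+ at day 7 relative to day 0, 6 and 5 at day 21 relative to day 7, 5 and 5 at day 21 relative to day 0, and 1 and 1 for the change of the difference from day 0 to days 7 and 21; over all genes 625, 283, 1850, 2832, 2716, 869, 2774, 3725, 5756, 230, 473 and 871. With a replicate block, 0 passed at day 0 (Stag3, adjusted p = 0.0666 with limma), at day 7 relative to day 0 in Pax7-/- (0.0766) and at day 21 relative to day 7 in Pax7+/+ (Dazl, 0.0894), and Ddx4 gave 0.0685; counts over all genes were 58, 105, 68 and 73 where they moved. The labels do not state that replicate numbers pair the samples, and a pairing was not excluded. Leaving out 1 array gave between 1 and 5 of the 7 at day 21 relative to day 0 in Pax7-/-, 0 to 2 at day 21 relative to day 7 in either genotype, 0 to 1 at day 0, at day 7 relative to day 0 in Pax7-/-, at day 21 relative to day 0 in Pax7+/+ and for the change to day 21, and 0 elsewhere; over all genes 120 to 347, 21 to 242 and 659 to 1284 between genotypes at days 0, 7 and 21, 429 to 1096, 612 to 1585, 46 to 548, 673 to 1571, 597 to 2717 and 2198 to 3743 between days, and 49 to 213, 64 to 307 and 188 to 591 for changes of the difference. The causes were not tested. Smc1b, Rec8, Dazl, Mael and Sycp1 lay below the array median on all 10 narrow arrays, where signal over background limits what can be read.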
